A study of Drosophila melanogaster with 36 samples.

Results

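The 48 genes that encode the proteins of the large subunit of the cytosolic ribosome (RpL3 to RpL41, RpLP0, RpLP1 and RpLP2) were followed in fly heads across 3 temperatures and 6 times of day. Members were taken by name and gene ID, without use of any measured value. All 48 were among the 14010 genes of the deposited table, and all 48 were among the 8791 genes that passed the filter on low counts. The flies were Canton-S, a wild-type strain, and RNA was taken from their heads. The 3 groups were flies kept at 18°C, flies kept at 25°C and flies kept at 29°C, each sampled at zeitgeber time (ZT, hours after lights on) 3, 7, 11, 15, 19 and 23. The study's methods give at least a few days of entrainment to light and dark cycles at each temperature, and the labels say only that flies were grown at different temperatures. The question for these genes was whether their transcript levels differed between temperatures and between times of day. Polyadenylated RNA was sequenced from its 3′ end, so a value reflects the number of transcript ends and not transcript length.

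The large subunit holds the catalytic centre where peptide bonds form, the tunnel through which the new protein leaves, and the stalk that recruits the GTPase translation factors. Its proteins are made in the cytoplasm, carried to the nucleolus and assembled there with ribosomal RNA, and most of their transcripts are among the most abundant in a fly head. In Drosophila, flies heterozygous for loss of many of these genes show the Minute phenotype of slow development and short, thin bristles.

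The table holds 1 column for each temperature and time point, although 36 libraries (2 for each) are labelled. Time points therefore served as the units of comparison. In the temperature comparisons, p-values rest on the spread left between columns after temperature and time point are fitted, not on replicates. Values are read counts divided by 1 scaling factor per column, called signal here. The columns held 736538 to 2750250 reads on genes. All 9 head and eye markers (photoreceptor genes such as ninaE, the main rhodopsin, and trp) had reads, with a summed signal of 28357 to 34287 (18°C), 34100 to 45983 (25°C) and 38132 to 49199 (29°C). The sum does not stand for each marker. For 29°C against 25°C, 3 of the 9 changes were above 0 (median log2 change -0.18), with 3 markers called higher and 1 lower. The 29°C ZT19 column stood apart, with 10988 genes detected and a summed testis marker signal of 215 against at most 12.4 in any other column. Its male accessory gland signal was 386, against at most 262 elsewhere, and its midgut signal 1507, against a 29°C median of 20.2. The 25°C ZT7 column had a summed midgut marker signal of 6419 and a flight muscle signal of 3482. With both columns left out, 34 members were called higher and 0 lower at 29°C against 25°C, 1 higher and 5 lower at 18°C against 25°C, and 34 higher and 0 lower at 29°C against 18°C. Of 4 neuron markers, 1 was called lower and none higher at 29°C against 25°C (median log2 change -0.48), and the part of the markers in the results was not tested. In bulk RNA, fewer cells of a type and less RNA per cell cannot be told apart.

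The 48 members took their largest share of reads at 29°C. At 18°C they took 12.6, 13.4, 13.2, 14.2, 11.9 and 13.1% of reads at ZT3 to ZT23. At 25°C the shares were 13.1, 15.5, 14.5, 15.2, 13.7 and 14.95%, and at 29°C they were 16, 18.6, 19.2, 16.05, 16.5 and 17.67%. All 6 columns at 29°C lay above all columns at the other temperatures, while the ranges at 18°C and 25°C overlapped. Averaged over the 6 time points (± SD), the share was 13.1% ± 0.757 (18°C), 14.5% ± 0.919 (25°C) and 17.4% ± 1.37 (29°C). The yolk protein transcripts Yp1, Yp2 and Yp3, which fat body expresses in females, moved the other way, with mean shares of 12.2% (18°C), 9.57% (25°C) and 7.92% (29°C). With their reads left out of the total, the members took 14.9% (18°C), 16% (25°C) and 18.8% (29°C).

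**Figure D1:**
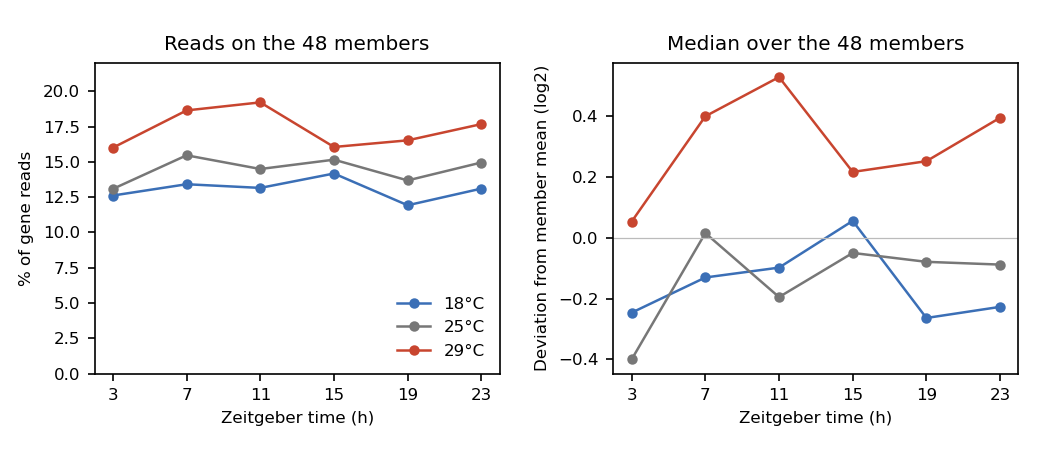
Left, percentage of reads on genes that fell on the 48 members against zeitgeber time (h) for 18°C, 25°C and 29°C; right, median over the 48 members of the deviation from each member's own mean on the log2 scale. The 29°C line lies above the others throughout, at 16% to 19.2% of reads, and ZT3 is its lowest point on both panels.

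At 29°C, 34 of the 48 members rose and 1 fell relative to 25°C, while 13 did not pass the test (limma on log2(signal + 1), time point as a factor, adjusted p under 0.05 over all 8791 genes). Of all genes tested, 10.6% were called higher and 6.69% lower. The median log2 change of the members was 0.42, beside 0.04 for all genes, and the interquartile range of the members ran from 0.18 to 0.59. In all, 36 members were higher at each of the 6 time points, including all 34 that were called, beside 12.4% of all genes. In 22 of the 48 members the 29°C values did not overlap the 25°C values and lay above them, beside 5.14% of all genes. The rise was mostly modest, and 13 members rose by at least 1.5-fold. When columns were scaled by library size, the median of all genes shifted by -0.17 in this comparison. In that setting 27 members were called higher, beside 491 of the 8791 genes, with a member median of 0.23 beside -0.13 for all genes.

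**Figure D2:**
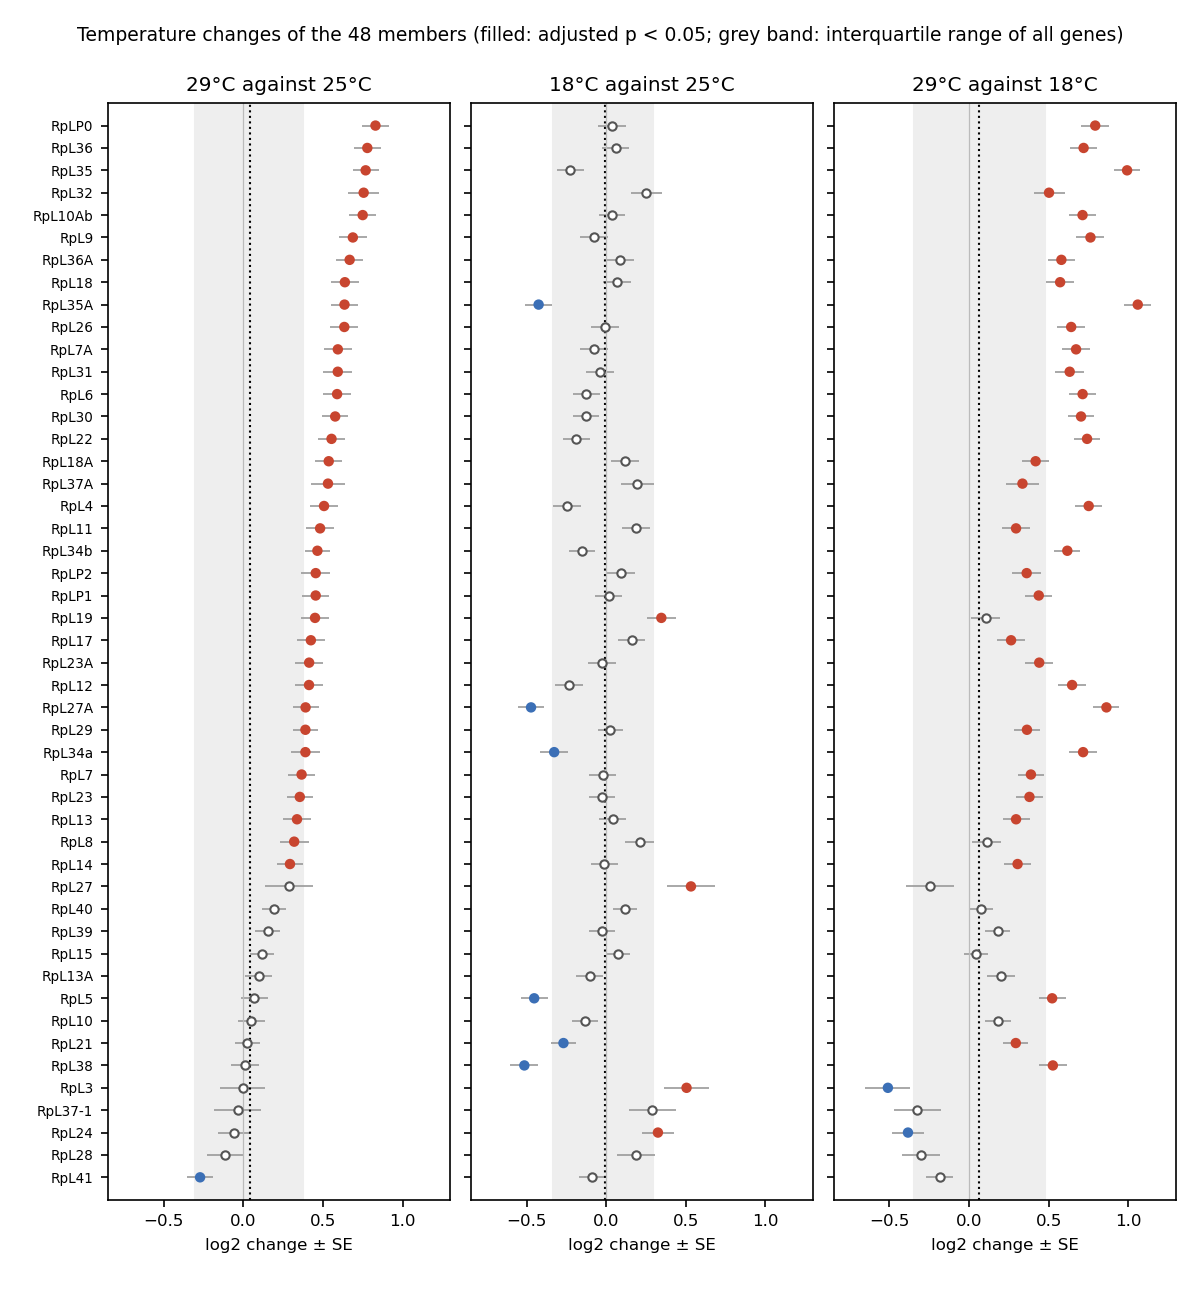
Log2 change (± SE) of each of the 48 members for 29°C against 25°C, 18°C against 25°C and 29°C against 18°C, with filled points at adjusted p under 0.05, a dotted line at the median of all genes and a grey band over their interquartile range. Members run from RpLP0 (0.83) at the top to RpL41 (-0.27) at the bottom by their change at 29°C against 25°C, and the middle panel holds only 10 filled points.

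All 4 proteins of the stalk and its base rose at 29°C. RpLP0 (CG7490), the scaffold on which the stalk is built, had a signal of 8392, 10447, 12138, 10351, 9690 and 11206 at 29°C from ZT3 to ZT23. At 25°C its signal was 4486, 6200, 5669, 6354, 6605 and 5728. The temperatures did not overlap, and the change was 0.83 ± 0.09 on the log2 scale (SE; adjusted p = 3.9e-07 in limma), a 1.78-fold rise and the highest among the members. RpLP1 and RpLP2, the acidic proteins that form the flexible arms of the stalk, each rose by 0.45 on the log2 scale. RpL12, which binds the ribosomal RNA at the stalk base, rose by 0.41, but a second row of the table for this gene with 46048 reads, against 77103 for the row used, gave 0.20 (limma adjusted p = 0.106).

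The 2 proteins that bind the 5S ribosomal RNA differed. RpL11 rose by 0.48 ± 0.09 at 29°C (SE, limma adjusted p = 0.00037), with means of 6170 ± 841 at 29°C and 4420 ± 620 at 25°C (SD, n = 6). RpL5, its partner in the same particle, averaged 5711 ± 637 at 29°C and 5437 ± 539 at 25°C and did not pass the test (log2 change 0.07, limma adjusted p = 0.63). In mammals both proteins also bind the p53 regulator MDM2. The difference between the changes of these genes was not tested.

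Among the 9 proteins of the subunit interface and the catalytic core, 4 rose at 29°C, 1 fell and 4 did not pass, with a median log2 change of 0.19. RpL36A, which lies at the tRNA exit site, rose by 0.67, and RpL29, RpL23 and RpL8 rose by 0.39, 0.35 and 0.32. RpL8 lost its call when the 25°C ZT11, the 29°C ZT7 or the 29°C ZT11 column was left out (limma adjusted p = 0.054 to 0.058), and RpL14 when the 25°C ZT11 column was left out (0.052). RpL40, made as a fusion with ubiquitin that is cleaved after translation, averaged 5365 ± 447 at 29°C and 4691 ± 332 at 25°C (log2 change 0.19, limma adjusted p = 0.085). RpL10, which joins late in assembly and contacts the tRNA in the peptidyl site, had a log2 change of 0.05.

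RpL41 (CG30425), a very short basic peptide at the bridge between the subunits, was the only member called lower at 29°C. Its signal was 7651, 9239, 9819, 9668, 9902 and 10988 at 29°C from ZT3 to ZT23, against 9895, 13269, 11394, 12367, 11060 and 11046 at 25°C. The 29°C value was lower at all 6 time points, which held for 8.24% of all genes, although the ranges overlapped. Its log2 change was -0.27 ± 0.08 (SE, limma adjusted p = 0.025), and 6.69% of all genes were called lower. The call was lost when any of 6 columns was left out (ZT3, ZT7 or ZT15 at 25°C or at 29°C), with a limma adjusted p of 0.051 to 0.085. The RpL41 row, at chr2R:20790936-20791452 in dm3, lies within the span of NaCP60E, which had 161 reads against 189512 for RpL41.

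Of the 9 proteins that line the peptide tunnel or ring its exit, 8 rose at 29°C, with a median log2 change of 0.51. RpL35, which sits at the exit and contacts the signal recognition particle, averaged 9942 at 29°C and 5831 at 25°C (n = 6), 0.77 ± 0.08 higher on the log2 scale (SE; adjusted p = 5.3e-07 in limma). RpL26 and RpL31, both at the exit, rose by 0.63 and 0.59. RpL22, which has a testis-enriched paralog in flies, rose by 0.55, and RpL4, whose loop narrows the tunnel, rose by 0.51. RpL39, a small protein of the tunnel wall, averaged 7825 ± 636 at 29°C and 7054 ± 825 at 25°C and did not pass (log2 change 0.15, limma adjusted p = 0.20). Its neighbour in the tunnel RpL17 rose by 0.42.

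Of the other 24 members, 17 rose at 29°C and none fell. RpL32 (CG7939), known as rp49 and widely used as the control transcript of fly qPCR, had a signal of 11247, 15145, 17939, 14369, 15326 and 16485 at 29°C from ZT3 to ZT23. At 25°C its signal was 6339, 9844, 8466, 9932, 9938 and 9176. The values did not overlap, and the log2 change was 0.76 ± 0.10 (SE, limma adjusted p = 4.6e-06), a 1.69-fold rise relative to the scaling of the table. Over all fits with other settings the RpL32 change at 29°C lay between 0.57 and 0.81, and the row of the table with a different end, at 95682 reads, gave 0.61.

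RpL36, on the X chromosome, and RpL10Ab, which forms the mobile stalk near the exit site of the tRNA, rose by 0.78 and 0.75. The gene pair RpL34a and RpL34b encodes closely similar proteins. RpL34b rose by 0.47 and RpL34a by 0.39, and RpL34a took 11.4% ± 0.777 of the reads of the pair at 29°C and 11.9% ± 0.704 at 25°C (SD, n = 6). RpL13A, RpL15, RpL21, RpL27, RpL28, RpL37-1 (CG9091) and RpL38 were the 7 of this group that did not pass. RpL38, which in mice is needed for translation of Hox transcripts, had a log2 change of 0.01.

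**Figure D3:**
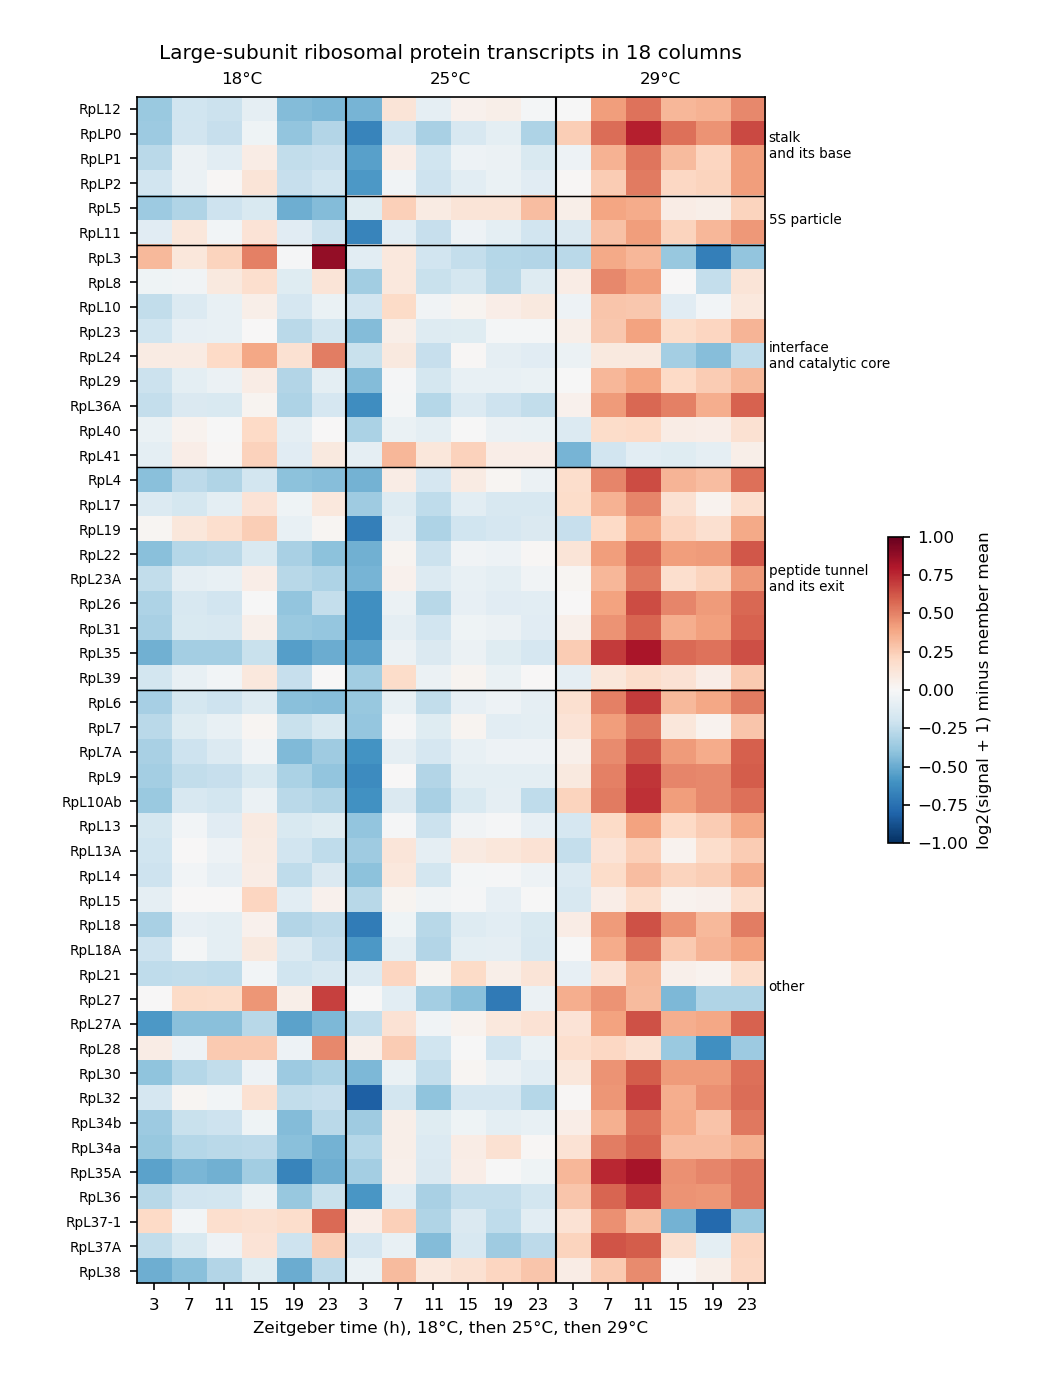
Deviation of log2(signal + 1) from the member's own mean for 48 members (rows, grouped by role) in 18 columns ordered by temperature and zeitgeber time (h). Most rows are above their mean at 29°C, where 31 members were above it at ZT3 and 47 at ZT7 and at ZT11, and a few rows (RpL3, RpL24, RpL27, RpL28, RpL37-1) have another pattern.

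At 18°C the members did not move together. Relative to 25°C, 4 members rose and 6 fell, beside 8.07% of all genes called higher and 5.32% called lower. Their median log2 change was -0.01, as for all genes, and 23 of the 48 changes were above 0. No member reached a 1.5-fold change. With columns scaled by library size, the median of all genes shifted by -0.13. In that setting 18 members were called lower and 1 higher, beside 855 and 449 of the 8791 genes. The members' median of -0.14 lay at that of all genes, -0.14. All 5 fat body markers had reads, and 4 were called higher and none lower at 18°C against 25°C (median log2 change 0.65), while 3 were called lower and none higher at 29°C against 18°C (median -0.76). Their summed signal was 167616 to 250656 (18°C), 115990 to 271495 (25°C) and 108476 to 186201 (29°C), and their part in the members' changes was not tested.

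The 6 members that fell at 18°C were RpL38, RpL27A, RpL5, RpL35A, RpL34a and RpL21. RpL38 (CG18001) had a signal of 2948, 3091, 3373, 3796, 2940 and 3455 at 18°C from ZT3 to ZT23, against 3944, 5165, 4442, 4602, 4804 and 5028 at 25°C. The ranges did not overlap, and the log2 change was -0.51 ± 0.09 (SE, limma adjusted p = 0.00024). RpL27A averaged 4025 ± 289 at 18°C and 5594 ± 541 at 25°C (log2 change -0.47), and RpL5 averaged 3970 ± 360 at 18°C and 5437 ± 539 at 25°C (-0.45). RpL35A, one of the genes mutated in Diamond-Blackfan anaemia in humans, had a log2 change of -0.42. These 4 did not overlap between temperatures, beside 2.32% of all genes, and kept their calls in every other fit. RpL34a (-0.33) lost its call when ZT19 of 25°C or all ZT19 columns were left out (adjusted p = 0.055 and 0.057 in limma). RpL21 (-0.27) lost it without any of 6 columns, namely ZT7 or ZT11 at 18°C and ZT7, ZT15, ZT19 or ZT23 at 25°C (0.050 to 0.084).

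The 4 members that rose at 18°C were RpL27, RpL3, RpL19 and RpL24. RpL27 (CG4759) had a signal of 160, 183, 181, 217, 166 and 258 at 18°C from ZT3 to ZT23, against 159, 148, 126, 119, 97.5 and 153 at 25°C, and the ranges did not overlap by a narrow margin (log2 change 0.53 ± 0.15, SE, limma adjusted p = 0.019). RpL3 (CG4863), which reaches close to the catalytic centre, had 816, 707, 762, 925, 646 and 1205 at 18°C, against 606, 704, 571, 554, 537 and 534 at 25°C. It was higher at all 6 time points at 18°C, with overlapping ranges (0.50 ± 0.14, limma adjusted p = 0.017).

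RpL19 (CG2746), a protein of the tunnel exit, had 10355, 11081, 11467, 12158, 9696 and 10346 at 18°C, against 6380, 9618, 8263, 8902, 9114 and 9232 at 25°C. The ranges did not overlap, as for RpL27 and for 4.12% of all genes (0.35 ± 0.09, SE, limma adjusted p = 0.011), and the call was lost with only the 12 columns compared (0.055). RpL24 (CG9282), which joins late and bridges to the small subunit, had 1594, 1602, 1735, 1978, 1674 and 2158 at 18°C, against 1296, 1619, 1290, 1525, 1422 and 1396 at 25°C, with overlap (0.33 ± 0.10, limma adjusted p = 0.035). The calls of RpL24, RpL27 and RpL3 were lost when single columns were left out, for 9, 7 and 6 of the 18 columns. These columns were ZT15 and ZT23 at 18°C, ZT7 and ZT11 at 25°C and ZT19 at 29°C for all 3 genes, with ZT19 at 18°C for RpL24 and RpL27, ZT11 at 18°C and ZT3 at 25°C for RpL24, ZT23 at 25°C for RpL24 and RpL3, and ZT19 at 25°C for RpL27. The limma adjusted p then reached 0.12 for RpL24, 0.072 for RpL27 and 0.068 for RpL3. In the other 14 settings, the call was lost in 7 for RpL24, 4 for RpL3 and 3 for RpL27. For RpL24 these included library size scaling (limma adjusted p = 0.24) and edgeR (adjusted p = 0.064).

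**Figure D4:**
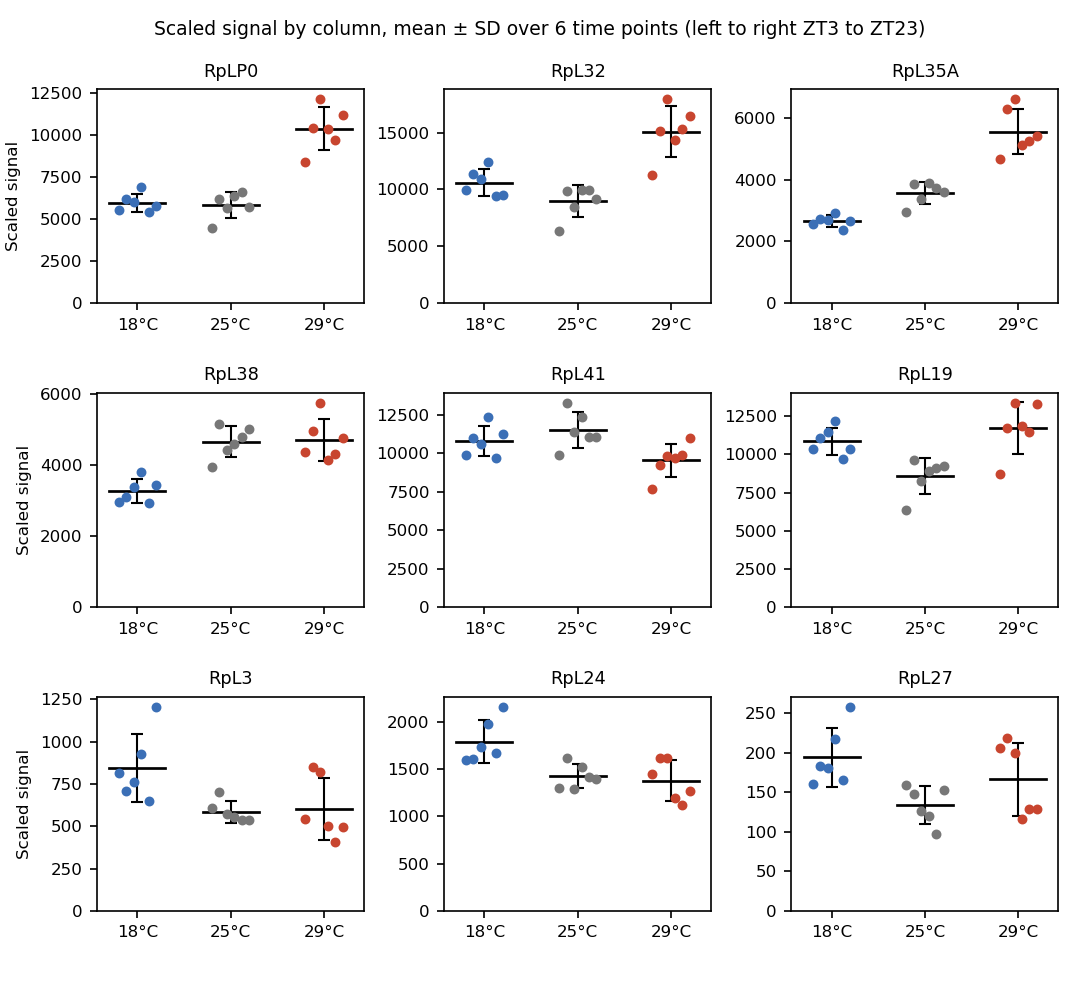
Scaled signal of 9 members in each column by temperature, with black bars for the mean ± SD over 6 time points and points ordered from ZT3 to ZT23 within a temperature. RpLP0 and RpL32 have their highest means at 29°C, RpL35A runs upward from 18°C to 29°C, RpL38 is low at 18°C only, and RpL3 and RpL24 are highest on average at 18°C.

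Between the extreme temperatures, 35 members were called higher in 29°C heads than in 18°C heads and 2 lower, beside 14.7% of all genes called higher and 13.3% called lower. The median log2 change was 0.43, beside 0.06 for all genes. This comparison shares its columns with those above, so its values are given side by side with them. RpL35A (CG2099) had a signal of 4690, 6294, 6613, 5136, 5249 and 5406 at 29°C from ZT3 to ZT23, against 2574, 2725, 2683, 2932, 2361 and 2658 at 18°C. The ranges did not overlap, as in 22 members and 6.88% of all genes, and the log2 change of 1.06 ± 0.08 (SE; adjusted p = 1.1e-09 in limma), a 2.08-fold difference, was the largest among the members. RpL35A also had the largest SD over the 18 columns (0.47 on the log2 scale), and RpL15 the smallest (0.12).

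RpL35 (0.99), RpL27A (0.86), RpLP0 (0.79) and RpL9 (0.76), a protein near the factor-binding site, followed RpL35A in size. RpL3 was the lowest of the members. Its 29°C signal of 542, 848, 821, 501, 405 and 496 stood against the 18°C values of 816, 707, 762, 925, 646 and 1205 given above, with overlap, and the change was -0.51 ± 0.14 on the log2 scale (SE; adjusted p = 0.0081 in limma). RpL24 had 1453, 1617, 1620, 1190, 1122 and 1265 at 29°C, with a log2 change of -0.38 ± 0.10 from 18°C (limma adjusted p = 0.0062). RpL37-1 (-0.33), RpL28 (-0.30) and RpL27 (-0.25) had negative values that did not pass. Leaving out the ZT19 column of 29°C removed the call of RpL3 (adjusted p = 0.078 in limma) and left 1 member called lower, and both genes lost it with the ZT19 columns left out (0.082 and 0.057). The number called lower was 4 when ZT7 of 18°C, ZT7 of 29°C or ZT11 of 29°C was left out. Of the members called higher, RpL17 lost its call without ZT7 or ZT11 of 18°C or ZT3, ZT7 or ZT11 of 29°C, RpL37A without ZT3 or ZT7 of 18°C or ZT7 or ZT11 of 29°C, and RpL11 without ZT23 of either temperature (limma adjusted p = 0.051 to 0.095).

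The 3 comparisons share columns, so their calls are not independent. RpL27A, RpL34a and RpL35A were called in all 3 comparisons. RpL10, RpL13A, RpL15, RpL28, RpL37-1, RpL39 and RpL40 were called in none.

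The members that did not rise at 29°C included most of those with few reads. The 6 members with the fewest reads summed over all columns, RpL27 (2749), RpL37-1 (5421), RpL34a (10952), RpL3 (11289), RpL28 (15102) and RpL24 (26118), were named after their values were seen, and their median log2 change at 29°C against 25°C was -0.02, beside 0.45 for the other 42. Within 29°C, depth moved with the levels of 5 of these 6. The ZT3, ZT7 and ZT11 columns held 978888 to 1245792 reads on genes, and the ZT15, ZT19 and ZT23 columns 2341140 to 2750250. In RpL3, RpL24, RpL27, RpL28 and RpL37-1, and also in RpL17 and RpL37A, each of the 3 shallower columns was higher than each of the deeper ones, which held for 7.27% of all genes. RpL27, for example, had 206, 219 and 200 in the shallower columns and 117, 129 and 129 in the deeper ones. Depth and time of day cannot be told apart within 29°C. At 18°C the 2 shallowest columns, ZT19 with 784440 reads and ZT23 with 736538, held the lowest and the highest RpL3 value of that temperature (646 and 1205). The ZT23 column also held the highest 18°C value of RpL24, RpL27, RpL28, RpL37-1 and RpL37A, but not of RpL17. Among these genes, only RpL3 was lowest at ZT19 of 18°C. At 25°C RpL27 had its highest value, 159, in the shallowest column, ZT3, with 1241552 reads. Its lowest value there, 97.5, was in the ZT19 column, the second shallowest with 1398361 reads. RpL3, RpL24, RpL28, RpL37-1 and RpL37A were highest at ZT7 of 25°C, with 1953917 reads, and RpL17 at ZT15. With log2 reads per column as a covariate, an alternative chosen after seeing the data, the number of members called changed by at most 1.5-fold in each comparison and direction.

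A second set that stayed level at 29°C was defined by place. RpL5 and RpL21 at the proximal end of 2L, RpL10 at the proximal end of 3L, RpL38 at the proximal end of 2R and RpL15 on the heterochromatic scaffold 3LHet had log2 changes of 0.01 to 0.12 at 29°C against 25°C, and none passed. The set was chosen after its values were seen and was not tested. The median change of the 5 was 0.05, beside 0.45 for the 43 members elsewhere, and for the 186 tested genes in the same regions it was 0.01, beside 0.04 for all genes. These regions were 2L and X from 22 Mb, 3L from 23 Mb, 2R and 3R below 1 Mb, and the heterochromatic and unplaced scaffolds of dm3. The set depends on these limits. Members close outside them were RpLP0 on 3L (start 22069142, log2 change 0.83 at 29°C against 25°C) and 2 on 3R. The latter were RpL35A (start 1291289, 0.64) and RpL13A (start 1450186, 0.10). At 18°C against 25°C, 3 of the 5 fell (RpL5, RpL21 and RpL38), with a median of -0.27, beside -0.17 for the 186 genes and -0.01 for all genes.

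No member differed by time of day after adjustment. The limma test over the 6 time points called 0 members (12 at unadjusted p under 0.05, beside 7.08% of all genes, lowest adjusted p = 0.58) and 29 genes, 0.33% of those tested, and edgeR on the recovered reads called 0 members (8 at unadjusted p under 0.05) and 54 genes. The 5 members with the lowest p in the limma test were RpL18, RpL26, RpLP1, RpL36A and RpL11. A 24 h cosine shared by the temperatures called 0 members in limma (2 at unadjusted p under 0.05, beside 8.51% of all genes) and 0 in edgeR (2 at unadjusted p under 0.05), beside 0.466% of all genes in limma. The test of a rhythm that differed between temperatures called 0 members in limma (4 at unadjusted p under 0.05, beside 6.68% of all genes), beside 0.0228% of all genes, and was not run in edgeR. Fitted peak-to-trough ratios had a median of 1.15 and a maximum of 1.38 (RpL37-1), and the median over all genes was 1.31. These ratios also grow with the spread of a gene and were not compared at matched depth. The median SD within a temperature was 0.167 (log2) for members and 0.45 for all genes.

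Many members nevertheless had their lowest or highest value in the same column. At 25°C, 42 of the 48 had their lowest value at ZT3, and at 29°C 37 did, while at 18°C 22 were lowest at ZT19 and 12 at ZT3. The highest value fell at ZT15 in 42 members at 18°C, at ZT7 in 28 at 25°C and at ZT11 in 32 at 29°C. The same counts were not made over all genes, so a trait particular to the members is not shown. Each column is 1 scaled value per gene, so a shift shared by the members in 1 column and an effect of that time of day cannot be told apart. No value stood apart from the other time points of its temperature in the share of reads or in the 9 members given by column (Dixon rule, 30 sets of 6 values). The SD within a temperature had a median of 0.167 (log2) over the members, and 0.171 over 326 other genes with at least 10000 reads.

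Other transcripts of protein synthesis gave the following counts. Of 38 genes of the small subunit, 34 passed the filter, and 25 rose and none fell at 29°C against 25°C, with a median of 0.44 on the log2 scale. For 18°C against 25°C, 5 of these rose and 5 fell (14.7% each, median -0.07), beside 8.07% and 5.32% of all genes. Of 46 genes of the mitochondrial large subunit, 8 (17.4%) rose and none fell at 29°C against 25°C (median 0.23), beside 10.6% of all genes called higher. At 18°C, 5 (10.9%) rose and none fell (median 0.24), beside 8.07% of all genes, so the 18°C share was near that of all genes. Of 7 elongation factor genes, 2 rose at 29°C, eEF1gamma (0.43) and eEF1beta (0.36), which belong to the complex that reloads eEF1alpha with GTP. At 18°C, 5 of the 7 fell, beside 5.32% of all genes called lower, while eEF1delta rose (0.62). Those that fell included eEF1alpha1 (-0.47), which delivers tRNA, and eEF2 (-0.35), which moves the ribosome along.

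Of 16 factors for assembly of the large subunit, 2 rose and none fell at 29°C against 25°C (median 0.15), a share of 12.5% that was near the 10.6% of all genes. They were Non1, a nucleolar GTPase, with a log2 change of 0.77 at 29°C and -0.60 at 18°C (limma adjusted p = 6.1e-06 and 0.00021), and RpL24-like. In yeast the protein like RpL24-like holds the place that RpL24 later takes. RpL24-like averaged 325 at 18°C, 459 at 25°C and 714 at 29°C, with log2 changes of 0.63 at 29°C and -0.50 at 18°C against 25°C, while RpL24 itself had -0.06 at 29°C and 0.33 at 18°C. At 18°C against 25°C Non1 and RpL24-like were the only factors called lower, and 1 factor was called higher, eIF6 (0.78, limma adjusted p = 0.0035), which keeps the subunits apart. Those shares, 12.5% lower and 6.25% higher, stood beside 5.32% and 8.07% of all genes. At 29°C against 18°C, 3 factors were called higher (Non1, RpL24-like and CG4364) and 3 lower (eIF6, Nmd3 and Nop60B). Each direction held 18.75% of the factors, beside 14.7% of all genes called higher and 13.3% called lower. The GTPase relatives Ns1 and Ns2 did not pass. Of 4 genes for RNA polymerase I and its factor, which make the large ribosomal RNAs, 3 were found and 2 passed the filter. Polr1A, the largest subunit, rose at 29°C (0.72, limma adjusted p = 0.045), and Tif-IA, the initiation factor, fell at 18°C (-0.86, limma adjusted p = 0.0011).

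Of the 6 paralogs outside the 48, RpL24-like had 8867 reads over all columns and RpL7-like 3547, both above the 2749 of RpL27. The others had few or none, with 234 for RpLP0-like, 5 for RpL37-2, 1 for RpL10Aa and 0 for RpL22-like. RpL7-like rose at 29°C (0.48, limma adjusted p = 0.0082).

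**Figure D5:**
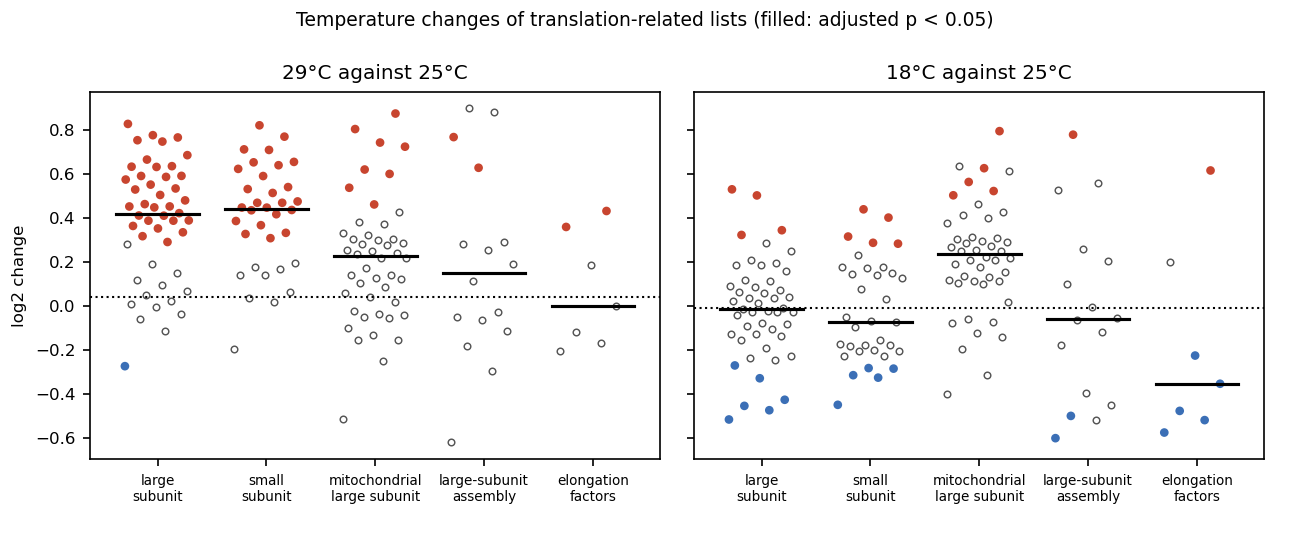
Log2 change of each tested gene in 5 lists for 29°C against 25°C (left) and 18°C against 25°C (right), with filled points at adjusted p under 0.05, black bars at list medians and a dotted line at the median of all genes. Both cytosolic subunits lie above the dotted line on the left (medians 0.42 and 0.44), and on the right the elongation factors lie lowest (median -0.35).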

How the data were processed

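The authors deposited 1 table of 21081 transcript rows with 18 columns of scaled signal. Within a column the deposited signal values were whole multiples of a single step (tolerance 0.001 reads), so read counts were recovered by division. Bowtie2, TopHat, Cufflinks and the dm3 build are named, without roles, in the submitters' processing notes; the counting tool, use of strand and the making of 1 column from 2 labelled libraries are not given in the sources used here. Without strand, reads of overlapping genes cannot be told apart (10 members overlap another gene, 9 of them by at most 144 bases). Columns called ZT19 were taken as the libraries labelled zt18. Positions come from the table and are counted from 1. The row with the most reads was kept per gene (24 members had several rows, 6 of them with different counts), and 12914 genes had a symbol in the RefSeq list.

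Genes were filtered with filterByExpr (minimum count 10), and log2(signal + 1) was fitted over all 18 columns in limma 3.58.1 (R 4.3.3) with Benjamini-Hochberg adjustment over 8791 genes. Fold changes are on that scale, which understates low genes. Alternatives used edgeR 4.0.16, DESeq2 1.42.0, other scalings, filters, pseudocounts and columns. The number of reads in a column (736538 to 2750250) limits how precisely genes with few reads were measured. The fits were checked on simulated data. Named members were the 5 highest and 5 lowest changes per comparison, members called against the majority, the 5 lowest p by time, the largest and smallest SD, RpL32 and 7 preset genes. Members and lists were chosen with earlier results of these data known. Promoter motifs were not analysed here.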

Additional observations from a re-analysis of the deposited data

How the results depend on the processing

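No paired analysis was possible because the columns carry no replicate number, but every fit of a temperature difference matched the temperatures by time point. In the sentences below, counts are of members unless genes are named, and causes were not tested. With each column left out in turn, 32 to 34 members were called higher and 0 to 1 lower at 29°C against 25°C (median log2 change 0.38 to 0.46), 1 to 5 higher and 4 to 9 lower at 18°C against 25°C (median -0.04 to 0.03), and 33 to 36 higher and 1 to 4 lower at 29°C against 18°C (median 0.38 to 0.47). Of the calls, 32 of 34 higher members held in all 18 of these fits and 26 of 34 in the other 14 settings at 29°C against 25°C, and 32 of 35 held in both sets at 29°C against 18°C. For genes the ranges were 738 to 1002 higher and 428 to 627 lower at 29°C against 25°C, 563 to 730 and 326 to 477 at 18°C against 25°C, and 1057 to 1287 and 973 to 1170 at 29°C against 18°C. The time point test called 0 to 38 genes, the shared rhythm 19 to 48 and the rhythm change 0 to 4, and 0 members each time.

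A 1.5-fold minimum left 13 higher and 0 lower at 29°C against 25°C, 0 and 0 at 18°C against 25°C, and 17 and 0 at 29°C against 18°C, and 602 genes higher at 29°C against 25°C (main count 929) and 467 at 18°C against 25°C (709). Library size scaling moved the share of higher calls among genes from 61.2 to 31.0% at 29°C against 25°C (491 higher, 1091 lower) and from 60.2 to 34.4% at 18°C against 25°C (449 and 855), and called 1 member higher and 18 lower at 18°C against 25°C and 4 lower at 29°C against 18°C. It gave member medians of 0.23 and -0.14 against 25°C. Without the ZT19 columns 1 was higher at 18°C against 25°C and 0 lower at 29°C against 18°C, and 427 genes were higher and 256 lower at 18°C against 25°C. With ZT19 of 29°C and ZT7 of 25°C left out, 0 were lower at 29°C against 25°C, 1 was higher at 18°C against 25°C and 0 lower at 29°C against 18°C, and 583 genes were higher and 346 lower at 29°C against 25°C. No low-count filter left 0 lower at 29°C against 25°C. DESeq2 called 10 lower at 18°C against 25°C and 4 lower at 29°C against 18°C. With only the 12 columns compared, 2 were higher at 18°C against 25°C, 1 lower at 29°C against 18°C, and 291 genes lower at 18°C against 25°C. At least 10 reads in every column left 841 genes higher at 29°C against 18°C. Genes called by time point numbered 18 without a filter, 17 with a pseudocount of 0.1, 0 without the ZT19 columns (611 at unadjusted p under 0.05 in limma), 0 without ZT19 of 29°C and ZT7 of 25°C (628) and 54 in edgeR, and the shared rhythm called 13 genes without either set of columns. Summed over all distinct rows, the members took 14.8% (18°C), 16.2% (25°C) and 19.8% (29°C). No member called in the fit reported was called in the other direction in any fit. The alternatives with another row for RpL12 and RpL32 and with depth as a covariate were chosen after seeing the data.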
